A study of Homo sapiens with 12 samples.

Results

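FOX2 binding was compared between P-KO and WT cells in 4 iCLIP libraries, 2 from P-KO cells and 2 from WT cells. All 4 came from H9, a long-established line of human embryonic stem cells. In iCLIP, ultraviolet light fixes RNA to the proteins that contact it, an antibody pulls down a single protein, and the attached RNA is sequenced, so that a cDNA ends beside the crosslinked nucleotide. The P-KO cells carry the knockout that the labels call SPA PKO, the WT cells are labelled wild type, and both were irradiated at 400 mJ per square centimetre before recovery with an antibody to RBM9, another name of RBFOX2 (written FOX2 here). The labels do not say whether the P-KO cells are 1 clone. The series text calls the 2 libraries of a group biological replicates. Members were the transcripts with a FOX2 signal. Each deposited line gives 1 nucleotide, a transcript, an intron number where the place is intronic, and a count. Beginning with the highest count, positions were kept where no kept position lay closer than 11 nt on that strand, and each of them is called a window. Window counts were summed per transcript and per intron. Chromosome 15 from 25000001 to 26000000, the mitochondrial chromosome and one ribosomal RNA contig were left out. This gave 39099 transcripts and 66449 introns with a FOX2 window, of 50961 transcripts and 99219 introns over all 12 libraries of the series, which also cover TDP43 and hnRNP M.

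RBFOX2 is a splicing factor whose RNA recognition motif binds UGCAUG and shorter GCAUG elements, mostly in introns. Binding downstream of an alternative exon usually favours its inclusion, and binding upstream of it usually favours skipping. Human embryonic stem cells express the protein, and it acts there on a large splicing programme. The files name Ensembl transcripts without gene symbols, and 0 of these identifiers matched the reference tables used here. Transcripts are therefore described by hg19 place, strand and intron number, with no gene name or role. Lists of known FOX2 targets, splicing regulators, cytoskeletal genes and stem cell, neural, endoderm and fibroblast markers had been chosen by symbol, so no count over them and no marker check of the H9 label is given. In bulk libraries the amount of an RNA, the number of cells and the binding per RNA molecule cannot be told apart from window counts.

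The P-KO libraries held 226863 and 622932 window counts outside the left-out places, against 212678 and 274339 in the WT libraries. P-KO replicate 2 stood apart in depth, while P-KO replicate 1 was as deep as the WT libraries. The left-out stretch of chromosome 15 was taken as a check of the labels, on the assumption, not stated in them, that the P-KO deletion lies there. It held 0.0844% and 0.122% of all window counts in P-KO cells, against 1.39% and 1.64% in WT cells. The lists contain no count below 2, so a transcript without a line is said to be listed at 0, and neither a limit nor a fold is given for it. Depth sets the error of any single window: most WT windows rest on 2 or 3 counts. Confidence intervals given below cover counting error alone.

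At 1472 places the same nucleotide was listed with FOX2 signal in all 4 libraries, of which 1222 were intronic and 250 exonic. These are deposited positions, thinned to at least 11 nt apart by their lowest level, and need not be windows of a given library. They lay in 523 transcripts. In 291 of these there was 1 such place, and in 26 there were 10 or more. The transcript with most recurrent places, 42, was on the minus strand of chromosome 5 (chr5:93489613-93948350, the span of its windows). Among the other transcripts named here, that at chr17:80720049-80900660 had 31 and that at chr3:75967812-77681836 had 29, both on plus strands. At these places the P-KO mean was a median of 1.49 times the WT mean in counts per 1000000 window counts (CPM, here without further scaling), with quartiles of 1.11 and 2.07. Both P-KO libraries exceeded both WT libraries at 599 places (40.7%), both were lower at 51 (3.46%), and at the other 822 the groups overlapped. Intronic and exonic places had nearly equal medians, both 1.49. A place entered this set only if listed in every library, and depth and the lowest listed counts differed between the genotypes. The part of this selection in the ratio was not tested. Over all tested transcripts, the median log2 fold change without TMM scaling was -0.46, so the ratio describes these places alone.

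The 5 recurrent places with the highest minimum over the 4 libraries show how single sites varied. An exonic site on the minus strand at chr10:103124691 had 1217 and 477 CPM in P-KO cells, against 390.3 and 467 CPM in WT cells. It also carried TDP43 signal, with 45 and 223 counts in P-KO and 95 and 371 in WT. A site on the plus strand at chr15:63357483, in intron 9 of its transcript, had 582 and 488 CPM in P-KO cells, against 399.7 and 357 CPM in WT cells. This site was listed at 0 in all 4 TDP43 and all 4 hnRNP M libraries. A site on the minus strand at chr8:38279044, in an intron numbered 10, had 573 and 485 CPM in P-KO cells, against 315 and 445 CPM in WT cells. TDP43 had 0 and 0 counts at this site in P-KO, against 0 and 5 in WT. A site on the plus strand at chr1:988624, in an intron numbered 33, had 559.8 and 477 CPM in P-KO cells, against 245 and 317 CPM in WT cells. TDP43 had 0 and 12 counts at this site in P-KO, against 17 and 0 in WT. At these 4 sites both P-KO libraries were above both WT libraries. The exonic site on the minus strand at chr11:62609265 had 674 and 218 CPM in P-KO cells, against 517 and 244 CPM in WT cells, and there the groups overlapped. It also carried TDP43 signal, with 82 and 72 counts in P-KO and 228 and 50 in WT.

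The transcripts with the most FOX2 signal were higher in P-KO cells. Levels are given as normalized CPM, taken over the counts in tested transcripts and scaled by TMM in edgeR. The highest transcript was the one on the minus strand at chr5:93489613-93948350, with 99.9% of its counts in intron 1. It had 18400.1 and 21551 CPM in P-KO cells, against 7244 and 7390.5 CPM in WT cells, or 19976 ± 2228 and 7317 ± 103 CPM (SD, n = 2 each). The log2 fold change of P-KO over WT was 1.45 with a standard error of 0.27, and the edgeR adjusted p was 0.243. The second, on the plus strand at chr6:15246577-15521728 with 77.2% of counts in intron 1, had 11569.9 and 13395 CPM in P-KO cells, against 6748 and 6556 CPM in WT cells. The third, on the plus strand at chr5:7397158-7827321, had 9095 and 9899.9 CPM in P-KO cells, against 3701 and 4216 CPM in WT cells, and 72.8% of its counts lay in intron 3. In each of these 3 the P-KO libraries lay clear above the WT libraries.

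The fourth was exonic over its whole signal, on the plus strand at chr11:65267106-65273412. It had 10987 and 8586 CPM in P-KO cells, against 4295 and 2750.5 CPM in WT cells. The sixth, on the plus strand at chr1:959032-991227, had 95.3% of its counts in the intron numbered 33. It had 7137 and 9591 CPM in P-KO cells, against 2611 and 4433 CPM in WT cells. The seventh, on the plus strand at chr17:80720049-80900660, showed the greatest log2 fold change of the 10, 1.55 with a standard error of 0.36, with 6620.0 and 9883 CPM in P-KO cells, against 2333 and 3311 CPM in WT cells. The eighth, on the plus strand at chr4:93225779-94690504, had 5941 and 4588 CPM in P-KO cells, against 4835 and 3183 CPM in WT cells, and was the one of the 10 whose groups overlapped.

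All 10 highest transcripts had higher P-KO means, with log2 fold changes of 0.39 to 1.55. In 9 of the 10 both P-KO libraries exceeded both WT libraries, where 24% of all tested transcripts did so, and 7 had an unadjusted p under 0.05, where 9.1% of tested transcripts were higher at that level. The ranking used the same P-KO libraries, which favours transcripts high in them. Counting windows of at least 5 counts alone, the log2 fold change turned to -0.036 for the transcript on chromosome 6, -0.26 for the exonic one on chromosome 11 and -0.44 for the one on chromosome 1. It turned to -0.11 for that on chromosome 3 at chr3:50714238-51410883 and to -0.53 for that on chromosome 8 at chr8:1772202-1903162. Counting windows in place of counts turned it to -0.22 at chr3:75967812-77681836 and to -0.43 at chr3:50714238-51410883. Without TMM scaling it was -0.0048 on chromosome 4.

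**Figure D1:**
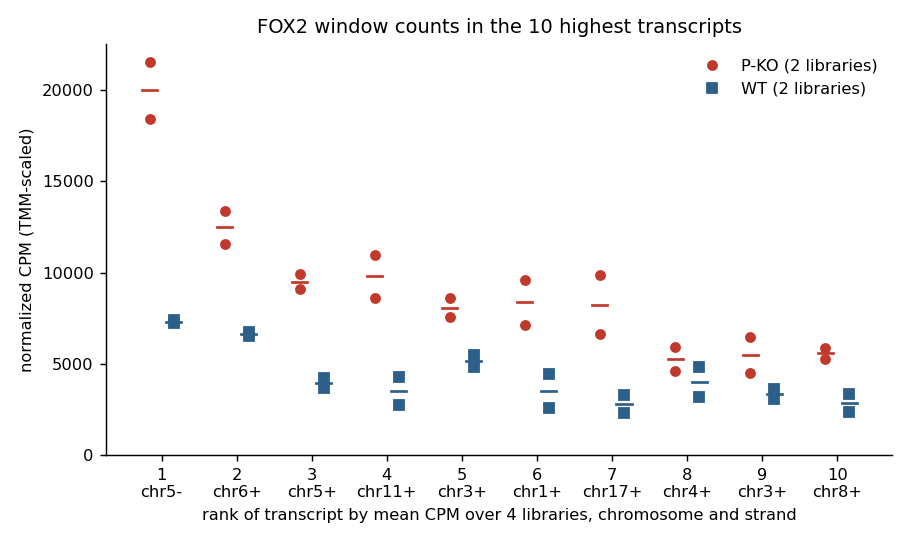
Normalized CPM of FOX2 window counts (linear axis from 0) in the 10 transcripts of highest mean CPM, in rank order with chromosome and strand; circles are the 2 P-KO libraries, squares the 2 WT libraries and bars the means of each. In 9 of the 10 both P-KO points lie above both WT points; the eighth, on chromosome 4, overlaps.

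Of the 39099 transcripts, 4493 passed edgeR's filter on low counts, 11.5% of the members with 78.5% of their counts. Of those tested, 3798 were listed in all 4 libraries. None passed an adjusted p of 0.05 (0 called, 0%) in edgeR's quasi-likelihood test, and the smallest adjusted p was 0.214. At an unadjusted p under 0.05 there were 683 (15.2%), 409 of them higher in P-KO (9.1%) and 274 lower (6.1%). Without TMM scaling the split turned to 215 higher and 562 lower, since that step moves the median log2 fold change of all tested transcripts to -0.06, against -0.46 without it. Directions are therefore best read relative to that median. DESeq2 called 178 transcripts (3.96%), 162 higher and 16 lower, and left 3223 without an adjusted p. In edgeR without WT replicate 2 there were 39 calls, 34 higher and 5 lower, and without WT replicate 1 there was 1. In these fits 1 genotype has a single library, which is assumed to vary like the other group, so the spread comes from that group alone. The split at an unadjusted p under 0.05 was 241 higher and 529 lower without P-KO replicate 2 and 389 and 421 without P-KO replicate 1, but 264 and 88 without WT replicate 1 and 410 and 127 without WT replicate 2.

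The transcripts of smallest p are given as values, since none passed. Among those higher in P-KO, ENST00000416555.1 on the plus strand at chr21:41002666-41090520 had 66 and 304 counts in P-KO cells, against 6 and 9 in WT cells, all in intron 1. Its log2 fold change was 3.95 with a standard error of 0.61 (edgeR adjusted p = 0.243). It was the greatest among tested transcripts listed in all 4 libraries whose groups lay apart. Only those with at least 20 mean counts in the higher group were ranked. ENST00000513320.1 on the minus strand at chr4:146683113-146826733 had 179 and 525 counts in P-KO cells, against 31 and 55 in WT cells, with 98.7% in intron 13. Its log2 fold change was 2.51 with a standard error of 0.42. In both the P-KO libraries lay above the WT libraries in counts and in CPM. TDP43 had 26 and 15 counts in the chromosome 21 transcript in P-KO, against 3 and 9 in WT. In the chromosome 4 transcript TDP43 had 11 and 18 counts in P-KO, against 6 and 8 in WT.

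A transcript on the plus strand at chr11:3404184-3424041 had 4614 and 3760.5 CPM in P-KO cells, against 1166 and 1174 CPM in WT cells, with 96.5% of counts in intron 3. One on the minus strand at chr5:151041534-151066165 had 5334 and 4490.2 CPM in P-KO cells, against 1292 and 1541 CPM in WT cells. Its signal was 99.8% exonic, and TDP43 counts there were 5 and 0 in P-KO and 0 and 16 in WT. Their log2 fold changes were 1.84 and 1.79, each with adjusted p = 0.243 by edgeR. A transcript at chr9:114137043-114157002 (minus strand) had 31 and 96 counts in P-KO cells, against 3 and 4 in WT cells, for a log2 fold change of 3.59. TDP43 had 14 and 23 counts there in P-KO, against 2 and 0 in WT. In the chromosome 11 transcript TDP43 had 37 and 41 counts in P-KO, against 44 and 23 in WT. By mean level these 3 ranked 28, 20 and 2021 of the 4493 tested transcripts.

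The 3 transcripts of smallest p were listed at 0 in both P-KO libraries. They entered the test through their WT counts alone, and a 0 here is a listing limit, so their values are given without a p. ENST00000428970.1 on the minus strand at chr3:176774748-176913995 was listed at 0 in P-KO cells, against 96 and 88 counts in WT cells. Those WT counts came from 48 and 44 windows in intron 3, each of 2 counts, the lowest count the lists contain. TDP43 showed 5 and 0 counts in this transcript in P-KO and 0 and 96 in WT. ENST00000491507.1 on the minus strand at chr3:75786884-75834358 was also listed at 0 in P-KO cells, against 101 and 86 counts in WT cells, from 27 and 25 windows, with 97.9% in intron 4. Its highest window had 9 counts, and it was listed at 0 in all TDP43 and hnRNP M libraries. A transcript on the plus strand at chr16:13176803-13307653 was listed at 0 in P-KO cells, against 42 and 70 counts in WT cells. TDP43 gave 3 and 82 counts there in P-KO, against 72 and 68 in WT.

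Among the tested transcripts, 40 were listed at 0 in both P-KO libraries and 19 in both WT libraries. Each of these passed the filter on low counts through the other genotype alone, so their numbers are given as a description. In the 40, the highest WT window was 2 counts in 15, at most 4 in 36 and never above 9. In the 19, the highest P-KO window was 2 counts in 4, at least 5 in 13 and at least 10 in 6, with a maximum of 42. These are raw counts, and P-KO replicate 2 was the deepest library, so the heights are not compared between the sets. The one of the 19 with the smallest p, on the plus strand at chr2:242595142-242597781, had 48 and 56 counts in P-KO cells, in intron 5, with highest windows of 4 and 7 counts. Of the transcripts with an unadjusted p under 0.05, the 409 higher in P-KO had a median highest window of 27 counts and a median mean level of 338 CPM, and the 274 lower in P-KO had 4.5 counts and 96.0 CPM. Over all tested transcripts these medians were 7 counts and 100.2 CPM, so the higher set also had the higher level.

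Transcripts lower in P-KO but listed in all 4 libraries rested on low windows in the 3 examples given here. None of these 3 had a window above 3 counts in any FOX2 library. Each P-KO value came from 1 window of 2 or 3 counts, at or next to the lowest count listed. The part of the listing limit in their fold changes was not tested. One on the minus strand at chr11:77045938-77184315 had 3 and 2 counts in P-KO cells, against 49 and 14 in WT cells, for a log2 fold change of -3.96, which was -4.94 without P-KO replicate 1, -3.13 without P-KO replicate 2, -2.53 without WT replicate 1 and -4.74 without WT replicate 2. One at chr9:97865923-98075566 (minus strand) had 2 and 3 counts in P-KO cells, against 21 and 36 in WT cells. A plus-strand one at chr9:96342769-96435957 had 3 and 3 counts in P-KO cells, against 26 and 31 in WT cells, with a log2 fold change of -3.52 that was -4.17 without P-KO replicate 1 and -2.91 without P-KO replicate 2. Each had both P-KO libraries below both WT libraries, as had 28.8% of all tested transcripts, and each had an adjusted p of 0.243 in edgeR. These transcripts, and the one on chromosome 9 at 114137043, were picked after their values were seen, because the largest fitted changes were all against a group listed at 0.

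The difference between genotypes varied with the level of FOX2 signal. Ranked by mean CPM over the 4 libraries, the 50 highest transcripts held 49 with a higher P-KO mean and 1 lower, with a median log2 fold change of 1.18. This lay 1.25 above the median of all tested transcripts (1.23 above it without TMM, with 45 higher and 5 lower). The next 150 had 138 higher and 12 lower with a median of 0.93 (114 and 36 without TMM). Ranks 201 to 1000 had 503 higher and 297 lower with a median of 0.42 (400 and 400 without TMM). Ranks 1001 to 4493 had 1480 higher and 2013 lower with a median of -0.23 (1082 and 2411 without TMM). At an unadjusted p under 0.05 in edgeR, 32 of the 50 highest were higher and 0 lower. In the last class, of 3493 transcripts, 149 were higher and 214 lower. Over all tested transcripts 9.1% were higher and 6.1% lower, so the share lower in the last class was near that of all.

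The 50 highest transcripts took 16.0% and 17.3% of window counts in P-KO cells, against 9.05% and 9.65% in WT cells. Transcripts of ranks 1001 to 4493 took 21.8% and 22.0% in P-KO cells, against 29.4% and 28.1% in WT cells. The 2 libraries of a genotype lay close together and the genotypes lay apart in both classes. The ranking used these same 4 libraries. The part of depth and of the listing limit in these differences was not tested. Ranked by the WT libraries alone, the 50 highest had 44 higher and 6 lower with a median of 0.76, and 35 of them were shared with the first ranking. Leaving out each library in turn gave medians of 1.05 to 1.32 for the 50 highest. With windows of at least 5 counts alone, the 50 highest had 30 higher and 20 lower, and their median of 0.08 was below the 0.26 of all transcripts tested that way. This limit takes more from WT than from P-KO libraries (windows of 2 counts alone held 22.5% and 5.89% of counts in P-KO cells, against 46.0% and 45.7% in WT cells) and leaves 1168 transcripts to test, so the 2 sets of values compare differently truncated libraries, and what moved the median was not tested.

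**Figure D2:**
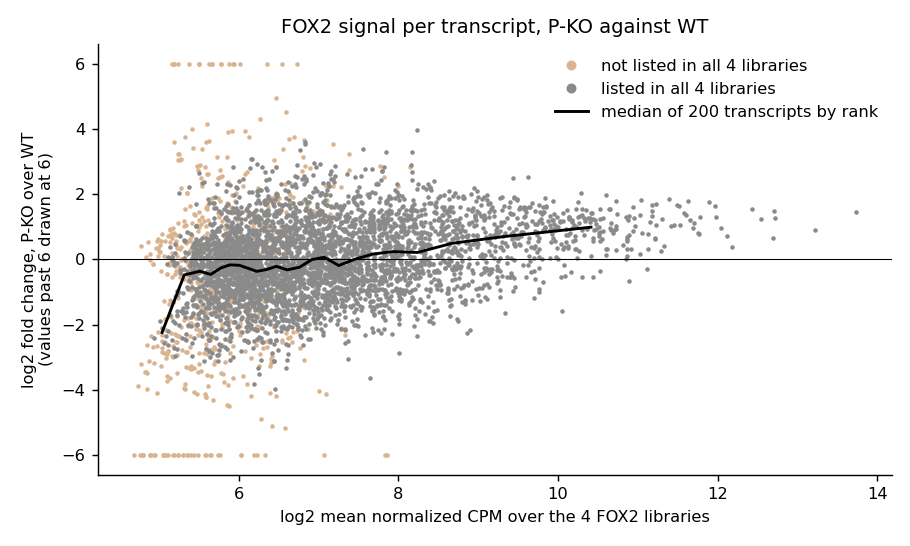
Log2 fold change of FOX2 window counts, P-KO over WT, against log2 mean normalized CPM over the 4 libraries, with 1 point per tested transcript (4493). Grey points were listed in all 4 libraries, tan points were not, values past 6 are drawn at 6, and the line joins medians of 200 transcripts by rank; the line is below 0 at the left and near 1 at the right.

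Window heights differed between the genotypes in FOX2 libraries. Windows averaged 3.76 and 5.55 counts in P-KO cells, against 2.70 and 2.80 in WT cells, a ratio of 1.66 (exact permutation test, two-sided, p = 0.3333, the smallest that 2 against 2 can give). Windows of 2 counts made up 42.3% and 16.3% of P-KO windows, against 62.0% and 64.1% of WT windows. Windows of 10 or more counts held 21.5% and 37.7% of counts in P-KO cells, against 5.42% and 9.20% in WT cells. The P-KO libraries lay on the same side of the WT libraries in each measure, and P-KO replicate 2 was the farther of the pair. These are raw counts, and P-KO replicate 2 was the deepest FOX2 library. For hnRNP M, windows of 10 or more held 35.8% and 3.59% of counts in P-KO cells, against 52.4% and 1.57% in WT cells. For TDP43 they held 4.62% and 10.9% in P-KO cells, against 14.7% and 11.7% in WT cells.

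The lowest count that was listed also differed. Among introns with at least 5 windows in a library, the lowest listed count was above 2 in 52.6% and 84.3% of them in P-KO cells, against 14.5% and 18.8% in WT cells. The part of this limit in the lower P-KO values of weak transcripts was not tested. High windows were found again across genotypes. Of the WT replicate 1 windows of at least 10 counts, 94.3% and 92.4% had a window in P-KO replicates 1 and 2, and 74.9% in WT replicate 2. Of the same windows in WT replicate 2, 78.3% and 98.6% had one in the P-KO libraries, and 60.8% in WT replicate 1. Of the high windows in P-KO replicate 1, 90.2% were found in P-KO replicate 2, and 71.0% and 62.6% in the WT libraries. Of those in P-KO replicate 2, 55.7% were found in P-KO replicate 1, and 35.0% and 57.5% in the WT libraries. The libraries searched held 60315 and 112301 windows in P-KO cells and 78895 and 97916 in WT cells. What sets these shares was not tested.

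**Figure D3:**
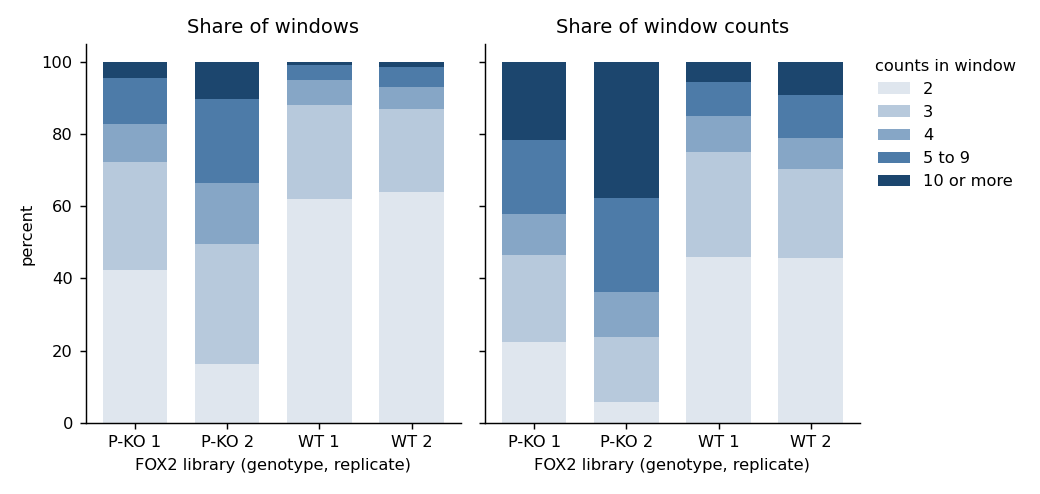
Share in percent of FOX2 windows (left) and of FOX2 window counts (right) by the number of counts in the window, from 2 (lightest) to 10 or more (darkest), in the 2 P-KO and 2 WT libraries. Windows of 10 or more hold 21.5% and 37.7% of the counts in P-KO and 5.42% and 9.20% in WT.

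Introns were tested in the same way. Of 66449 introns, 3987 were tested (6.00%, with 66.4% of window counts) and 2936 were listed in all 4 libraries. None passed in edgeR (0 called, 0%), with a smallest adjusted p of 0.258. At an unadjusted p under 0.05 there were 637 (16%), 318 higher in P-KO (7.98%) and 319 lower (8%), and without TMM 201 higher and 564 lower. DESeq2 called 90, of which 79 were higher and 11 lower. Among the 50 introns of highest mean level 49 were higher and 1 lower, with a median log2 fold change of 0.90 against -0.07 for all tested introns. With windows of at least 5 counts alone, 24 of these 50 were higher and 26 lower.

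Intron 1 of the chromosome 5 transcript was the highest intron, with 22850 and 28083 normalized CPM in P-KO cells, against 10449 and 10693 in WT cells. Its windows spanned chr5:93498239-93696751. The intron numbered 33 on chromosome 1 (chr1:987365-988995, plus strand) had 8649.9 and 11896 CPM in P-KO cells, against 3520 and 6043 CPM in WT cells. Both introns had P-KO libraries above the WT libraries. Intron 2 of the chromosome 3 transcript (chr3:75987633-77118849, plus strand) had 9091 and 11052 CPM in P-KO cells, against 7688 and 6905 CPM in WT cells, a smaller difference with a log2 fold change of 0.47 and a standard error of 0.28.

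Single introns of smaller p stood farther apart without passing. The intron numbered 21 at chr7:158596191-158618715 (minus strand) had 2278 and 2321 CPM in P-KO cells, against 562 and 600.5 CPM in WT cells. Its log2 fold change was 1.98 with a standard error of 0.34 (edgeR adjusted p = 0.258), and TDP43 had at most 8 counts there in any library. The hnRNP M libraries had 8 and 41 counts in this intron in P-KO, against 0 and 7 in WT. In the other direction, the intron numbered 14 at chr1:172101000-172209436 (plus strand) had 4 and 13 counts in P-KO cells, against 57 and 61 in WT cells, a log2 fold change of -3.51 with a standard error of 0.62. The TDP43 libraries had 14 and 18 counts in this intron in P-KO and 17 and 26 in WT. An intron numbered 2 at chr3:186681983-186744960 (plus strand) was listed at 0 in P-KO cells, against 32 and 44 counts in WT cells. Those WT counts came from 16 and 22 windows, each of 2 counts, the lowest count the lists contain. This intron passed the filter on low counts through the WT libraries alone, so its values are given as a description.

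FOX2 signal was mostly intronic in both genotypes. Introns held 87.4% of window counts in P-KO replicate 1 (95% Clopper-Pearson interval 87.3 to 87.6) and 87.6% in P-KO replicate 2 (87.5 to 87.6), against 90.7% (90.6 to 90.8) and 90.3% (90.2 to 90.4) in the WT libraries. The P-KO mean was 3.00 percentage points lower than the WT mean, and signal outside introns was 1.32 times as large a share in P-KO as in WT (exact permutation test, two-sided, p = 0.3333, the smallest possible). With windows of at least 5 counts alone the difference turned to 4.045 points higher in P-KO, with means of 82.5% in P-KO and 78.4% in WT. Since that limit removes more of the WT counts than of the P-KO counts, the 2 differences rest on unequal parts of the libraries.

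The same measures were taken in the other proteins, since a genotype difference in FOX2 need not be particular to FOX2. The 100 highest transcripts of each library held 23.1% and 25.3% of FOX2 counts in P-KO cells, against 14.9% and 15.6% in WT cells. For TDP43 they held 18.1% and 18.6% in P-KO cells, against 22.6% and 18.8% in WT cells, and for hnRNP M 18.2% and 17.0% in P-KO cells, against 18.9% and 16.4% in WT cells. The FOX2 difference set against that of TDP43 gave an exact permutation p of 0.0556, the smallest of 36 arrangements, and against hnRNP M 0.167. The 50 transcripts highest for FOX2 held 8.02% and 7.46% of TDP43 counts in P-KO cells, against 9.09% and 6.82% in WT cells, and for hnRNP M their share was 6.90% and 7.22% in P-KO cells, against 7.70% and 7.05% in WT cells. For both of these proteins the genotypes overlapped in this share. The 50 were ranked on the FOX2 libraries of both genotypes, which favours transcripts high in FOX2 P-KO libraries. TDP43 and hnRNP M had no part in that choice. This share therefore cannot show whether the difference is particular to FOX2.

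A fit of all 12 libraries tested for each transcript whether the genotype effect was the same in FOX2, TDP43 and hnRNP M. A small p in it does not say which protein differs. None of 7166 transcripts passed in edgeR (0 called, 0%), with a smallest adjusted p of 0.195, and 383 had an unadjusted p under 0.05 (5.34%). The transcript at chr1:959032-991227 had an unadjusted p of 0.000142 and an adjusted p of 0.220 in edgeR. Its TDP43 counts were 176 and 503 in P-KO, against 569 and 472 in WT, and hnRNP M was listed at 0 in P-KO and at 0 and 35 in WT. Other fits of the same difference called 31 transcripts (DESeq2, with 3612 left without an adjusted p), 5 (edgeR's robust option) and 7 (edgeR with a replicate block), so whether single transcripts differ between the proteins depended on the fit.

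**Figure D4:**
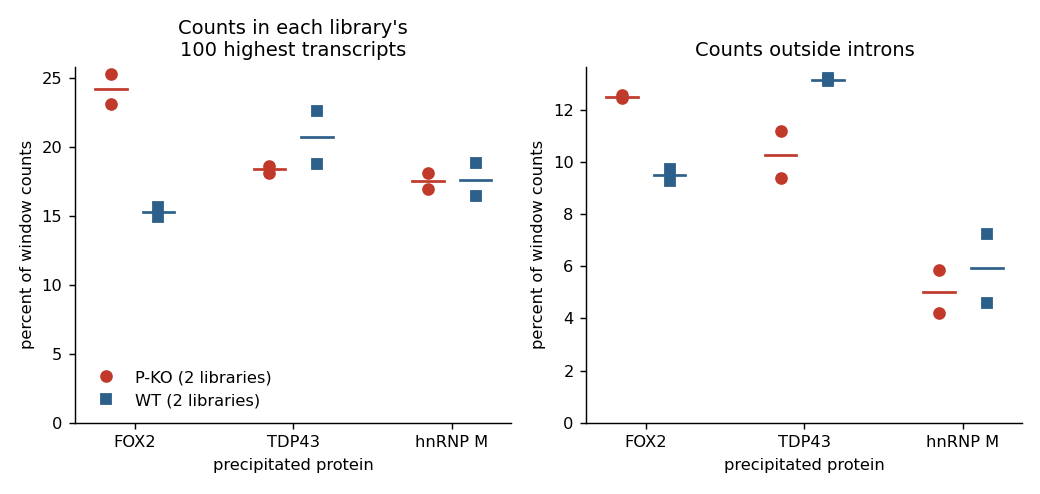
Percent of window counts in each library's 100 highest transcripts (left) and outside introns (right) for FOX2, TDP43 and hnRNP M; circles are P-KO libraries, squares WT libraries and bars the means of 2. For FOX2 both measures are higher in P-KO, with 23.1% and 25.3% against 14.9% and 15.6% on the left; for TDP43 both means are lower in P-KO.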

How the data were processed

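Human iCLIP libraries of FOX2 in P-KO and WT H9 cells were analysed from lists of crosslink positions. The aligner was Bowtie and the build GRCh37 (hg19), per the submitters' processing notes; version, peak caller and any collapsing of barcodes: not given in the sources used here. Whole-number counts per position, with no normalization, were deposited with a p-value or q-value that was never above 0.05; which of the pair it is, and whether counts are reads or cDNAs, is not stated. Of 1049568 distinct positions, 0.776% carried different transcripts in different libraries, and signal of a gene can be divided among its transcripts.

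The members, lists and tests were chosen with earlier results of these data known. Positions were kept by falling count, at least 11 nt apart. Transcript and intron counts of the 4 FOX2 libraries were tested with edgeR 4.0.16 in R 4.3.3 (filterByExpr, TMM, quasi-likelihood F test, Benjamini-Hochberg over all tested features, threshold 0.05). The common dispersion gave a biological coefficient of variation of 0.581 for transcripts and 0.678 for introns. Standard errors were derived from the F statistic. Equality of the genotype effect over FOX2, TDP43 and hnRNP M was tested in a fit of 12 libraries. Shares were compared by exact permutation. Replicates differed by more than sampling noise (chi-square per degree of freedom 10.0 in P-KO and 6.20 in WT), so none was treated as a duplicate. As no transcript passed, the rule named the 10 of smallest p, the 5 largest changes each way with at least 20 mean counts in the higher group, and the 10 of highest level; for introns, 5 each; and the 5 highest recurrent sites. Scripts were tested on simulated counts. Alternatives included DESeq2 1.42.0, no TMM, other filters, other window rules, 10 kb bins, a replicate block and leaving out each library.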

Additional observations from a re-analysis of the deposited data

Results flagged for a closer look

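In 3 measures every FOX2 library moved one way between genotypes and every TDP43 library the other way. The intronic share of window counts was 3.00 percentage points lower in P-KO than in WT for FOX2 (a difference of -3.00) and 2.87 points higher for TDP43. The share held by the 100 highest transcripts of each library was 8.95 points higher in P-KO for FOX2 and differed by -2.32 points for TDP43. The share held in windows of 10 or more counts was 22.3 points higher in P-KO for FOX2 and differed by -5.46 points for TDP43. This last share rests on raw counts in libraries of unequal depth, and for hnRNP M it was 52.4% and 1.57% in the 2 WT libraries. Each difference of effects gave an exact permutation p of 0.0556, two-sided on the log2 shares. This is the smallest that the 36 arrangements allow, so none could pass 0.05. The 3 measures were picked because both proteins had groups apart, in opposite directions. That choice fixes the p at its smallest value, so the p adds no support. Of 10 such differences computed (5 measures against 2 proteins, intronic and exonic shares being 1 quantity), none set against hnRNP M was below 0.111.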

How the results depend on the processing

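Depth and the listing limit bound these results: an exact test of 2 libraries against 2 cannot go below 0.3333, and signal under 2 counts is not listed. Against 0 transcripts called in edgeR, DESeq2 called 178, no filter on low counts 41 (19 higher, 22 lower), a minimum of 20 counts in 2 libraries 2 (both lower), and leaving out 1 library, with the lone library assumed to vary like the other group, 0 to 39; the robust option, no TMM, all 12 libraries, the other window rules, kept places, 10 kb bins and intronic positions gave 0. Against 0 introns, DESeq2 called 90, no filter 71 and all 12 libraries 1. For the difference between proteins, DESeq2 called 31 transcripts and the robust option 5. Replicate numbers are shared by the groups, but nothing in the labels says that they pair libraries. Same-numbered libraries deviated together with r = 0.158 over transcripts, and the replicate block gave 23 transcripts (21 higher), 7 introns and 7 for the difference between proteins. The intronic share difference turned to 4.045 with windows of at least 5 counts. The median log2 fold change of the 50 highest transcripts, a summary added after seeing the data, was 0.77 without TMM, 1.498 with all 12 libraries, 0.56 for numbers of windows, 0.081 for windows of at least 5 counts and 0.76 ranked by the WT libraries. Named introns turned with windows of at least 5 counts to -0.13 (chromosome 6, intron 1) and -0.45 (chromosome 1, intron 33), and with numbers of windows to -0.26 (chromosome 3, intron 2). Named transcripts turned, with windows of at least 5 counts, to -0.036, -0.26, -0.44, -0.11 and -0.53, with numbers of windows to -0.22 and -0.43, and without TMM to -0.0048, at the places given in the results. The causes were not tested.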
